A study of Mus musculus with 15 samples.

Results

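The lysosome and autophagy genes described here were 43 genes chosen by name and found by gene symbol among the 35880 symbols of the table. They were chosen with earlier results of these data known. All 43 were present, and all 43 were among the 14652 genes that passed the filter on low values, which asked for 3 CPM or more when the 15 samples were added up. CPM is a gene's count scaled to a common total per sample. They fall into 10 roles: 3 transcription factors, 5 genes of initiation and the phagophore, 5 conjugation enzymes, 5 ATG8 family genes, 4 autophagy receptors, 6 lysosomal membrane proteins, 6 cathepsins, 4 glycosidases, 2 lipid-handling luminal proteins and 3 subunits of the V-ATPase.

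The cells were LL2/Luc2, a luciferase-carrying Lewis lung carcinoma line of the mouse, grown in culture with no treatment. The 5 lines were LL2 WT, the parental line with intact Keap1 and Nfe2l2; KEAP1 KO #1, KEAP1 KO #2 and KEAP1 KO #3, which are 3 lines with Keap1 knocked out; and NRF2 KO, with Nfe2l2 knocked out. Every knockout line was grown from 1 single cell sorted for GFP after nucleofection with a plasmid that carried Cas9 and a guide RNA, so each stands for 1 clone (the KEAP1 KO lines are called clone #1, clone #2 and clone #3 where values are listed), and the parental line had not gone through that cloning. RNA sequencing was done on 3 replicates of each line. KEAP1 holds the transcription factor NRF2 in the cytoplasm and hands it to the proteasome, so the KEAP1 KO lines served as NRF2-active cells and the NRF2 KO line as NRF2-inactive cells. The question for the genes below was how their transcripts differed between these states.

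Lysosomes are acidic organelles in which proteases, glycosidases and lipid-handling proteins break down material delivered by endocytosis and autophagy. The V-ATPase pumps protons into the lumen, membrane proteins such as LAMP1 line the organelle, and the cathepsins are its main proteases. In autophagy a phagophore grows around cargo, ATG8 proteins are conjugated to its lipid, receptors tie cargo to ATG8, and the closed vesicle fuses with the lysosome. TFEB, TFE3 and MITF are related basic helix-loop-helix factors that bind the CLEAR element, an E-box with set flanking bases found near the start of many lysosomal genes. NRF2 binds a different element, the antioxidant response element (ARE), with small MAF proteins.

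The start regions of the members were read from RefSeq on GRCm38.p6, from 250 bases before to 50 bases after the annotated start, and 35 of the 43 members had such a window. Both strands were searched for the CLEAR core TCACGTG, for the E-box CACGTG that it contains, and for the ARE core TGACNNNGC. The CLEAR core was found in 10 of the 35 members (Atg3, Atg7, Lamp1, Mcoln1, Ctsa, Ctsd, Gla, Glb1, Atp6v0d1 and Atp6v1a), which is 22.7% of the 44 windows of members, and in 3.77% of all 32851 windows. The E-box was found in 12 members, 27.3% of the windows of members, and in 7.15% of all windows. The ARE core was found in 9 members (Mitf, Map1lc3b, Tax1bp1, Scarb2, Ctsd, Ctsz, Hexa, Psap and Atp6v1a), 20.5% of the windows of members, and in 12.4% of all windows. Ctsd and Atp6v1a held both cores. A match describes letters in a window and is not a measured binding site. The stretches below are examples from members with a core that rose in at least 2 of the KEAP1 KO clones, as Atg3, Atg7, Map1lc3b, Lamp1, Ctsa and Atp6v1a, not shown, also did. Holding a core did not go with a rise in every case: Mcoln1 and Glb1 with a CLEAR core, and Tax1bp1 and Scarb2 with an ARE core, passed in no clone. Tfe3, Npc1, Ctsb and Atp6v1h, higher in all 3 clones, were in neither the CLEAR nor the ARE list. The 8 members without a window are not named here, so no core and no search cannot be told apart for a given member. The stretches are given on the strand of the gene, 5′ to 3′, with the matches in capitals.
Ctsd, chr7:142387828-142388077, minus strand, the 250 bases before the start, with CLEAR cores and ARE cores in capitals: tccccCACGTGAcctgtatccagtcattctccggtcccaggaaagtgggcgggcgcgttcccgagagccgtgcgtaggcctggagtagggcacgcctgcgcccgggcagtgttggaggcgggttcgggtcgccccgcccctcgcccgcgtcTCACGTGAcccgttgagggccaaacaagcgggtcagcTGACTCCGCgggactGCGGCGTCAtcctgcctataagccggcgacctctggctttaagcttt
Gla, chrX:134601151-134601255, minus strand, with CLEAR cores in capitals: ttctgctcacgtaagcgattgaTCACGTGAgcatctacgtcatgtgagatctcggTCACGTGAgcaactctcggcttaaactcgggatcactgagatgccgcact
Hexa, chr9:59539369-59539457, plus strand, with the ARE core in capitals: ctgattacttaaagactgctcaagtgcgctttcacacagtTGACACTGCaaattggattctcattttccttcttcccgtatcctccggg
Psap, chr10:60277568-60277627, plus strand, with the ARE core in capitals, read from the other strand: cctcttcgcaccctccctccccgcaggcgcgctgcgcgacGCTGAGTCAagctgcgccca

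In Ctsd and Gla, TCACGTGA holds the CLEAR core on both strands at once, so its 2 matches overlap by all but 1 base. Gla held such a palindrome at 2 places, at positions -228 and -195 counted back from the start, and Ctsd held 1, at position -99, beside a single core at position -245.

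In the sum over the 43 members, the 3 KEAP1 KO clones carried more of these transcripts than the parental line, and the NRF2 KO clone did not. The summed level of the 43 genes was 4755 to 4941 CPM in LL2 WT, 5902 to 6143 for clone #1, 6648 to 7469 for clone #2, 7406 to 7983 for clone #3 and 4641 to 4746 for NRF2 KO (range over 3 replicates). No KEAP1 KO sample overlapped any sample of LL2 WT or NRF2 KO in this sum. Abundant genes weigh most in it, so it does not show a rise of every member. The 6 cathepsins alone had mean sums of 1642 CPM in LL2 WT and 2200, 3219 and 3514 for clones #1, #2 and #3. The mean sums of all 43 were 4842, 5999, 7185 and 7755 CPM in the same order. In bulk RNA a higher level in a few cells and a slightly higher level in all cells cannot be told apart. Each gene was then tested with limma on log2(CPM + 0.1), and a gene passed at a Benjamini-Hochberg adjusted p under 0.05 over all 14652 genes. A gene is named as called where its log2 fold change was also beyond 1 in either direction. All fold changes are on that log2(CPM + 0.1) scale, which understates the change of the lowest genes, and the 4 comparisons with LL2 WT share its 3 samples.

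Against LL2 WT, 16 members were higher and 2 lower in clone #1, where 15.9% of all genes tested were higher and 7.25% lower. In clone #2, 16 members were higher and 4 lower, with 17.3% and 14.6% of all genes. In clone #3, 20 were higher and 3 lower, with 16.6% and 14.8% of all genes. The members that passed as higher were thus 37.2%, 37.2% and 46.5% of the 43, above the share over all genes in each clone, whereas those that passed as lower were 4.65%, 9.30% and 6.98%, below it. The larger changes did not stand apart in this way in clone #1: 4 members were called there, 9.30% of the 43, beside 8.54% of all genes. The called members were 7 in clone #2 and 11 in clone #3, which is 16.3% and 25.6% of the 43. Of all genes 13.7% and 13.4% were called, so the share in clone #3 was above that of all genes. In each clone more of the members that passed lay within a log2 fold change of 1 than beyond it. Because the 43 were chosen with earlier results of these data known, these shares describe them and do not test the pathways. Genes of the same pathways outside the 43 are counted further below.

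The median log2 fold change of the members was 0.23 in clone #1, 0.23 in clone #2 and 0.34 in clone #3, and the median of all genes was 0.11, 0.03 and 0.02. Rescaling the samples by median ratios brought the median of all genes in clone #1 to 0.01 and that of the members to 0.13, so about 0.10 of each value in that clone was shared by the whole table. Without KEAP1 KO #1 replicate 3 the members' median there was 0.11, near the 0.08 of all genes, and under quantile normalization it was 0.09. In all 3 clones, 10 members passed as higher, where 8.72% of all genes did: Tfe3, Map1lc3b, Lamp1, Npc1, Ctsb, Ctsd, Gla, Hexa, Atp6v1a and Atp6v1h. Of these 10, Map1lc3b, Ctsb, Ctsd, Hexa and Atp6v1a passed in all 3 clones under each of the 25 alternative fits. When each clone was fitted with LL2 WT alone the other 5 no longer did. Fewer of all genes were higher in that fit too: 991, 1622 and 1415 in clones #1, #2 and #3. The main fit gave 2330, 2534 and 2437. Leaving out 1 replicate left 8 to 10, with Lamp1, Npc1 or Atp6v1h lost. Other fits gave more: 11 under quantile normalization, which added Tfeb. With a replicate block or replicate 3 as a batch it was 15, which added Tfeb, Atg5, Ctsa, Ctsl and Gusb. More of all genes were higher in each clone too, 3868, 3717 and 3559 with the block and 3895, 3742 and 3575 with the batch. One member, Wipi1, passed as lower in all 3, where 4.76% of all genes did. No member passed as higher in one clone and lower in another, and 11 members passed in none of the 3.

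In NRF2 KO, 0 of the 43 members were higher and 1, Ctsz, was lower against LL2 WT, and 0 were called. Over all genes 0.13% were higher, 0.491% lower and 0.464% called. By unadjusted p under 0.05, 6 members (14.0%) and 11.2% of all genes differed. The median log2 fold change of the members was -0.12, and that of all genes 0.04. The former rested in part on single samples: it was -0.04 without LL2 WT replicate 3 or without NRF2 KO replicate 2, and -0.07 without NRF2 KO replicate 1. The mean of the 3 KEAP1 KO clones was also set against NRF2 KO directly, which leaves LL2 WT out: 20 members passed in either direction, 18 of them higher, and 8 were called, beside 25.9%, 13.6% and 9.94% of all genes. Those that passed as lower were Wipi1 and Map1lc3a.

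**Figure D1:**
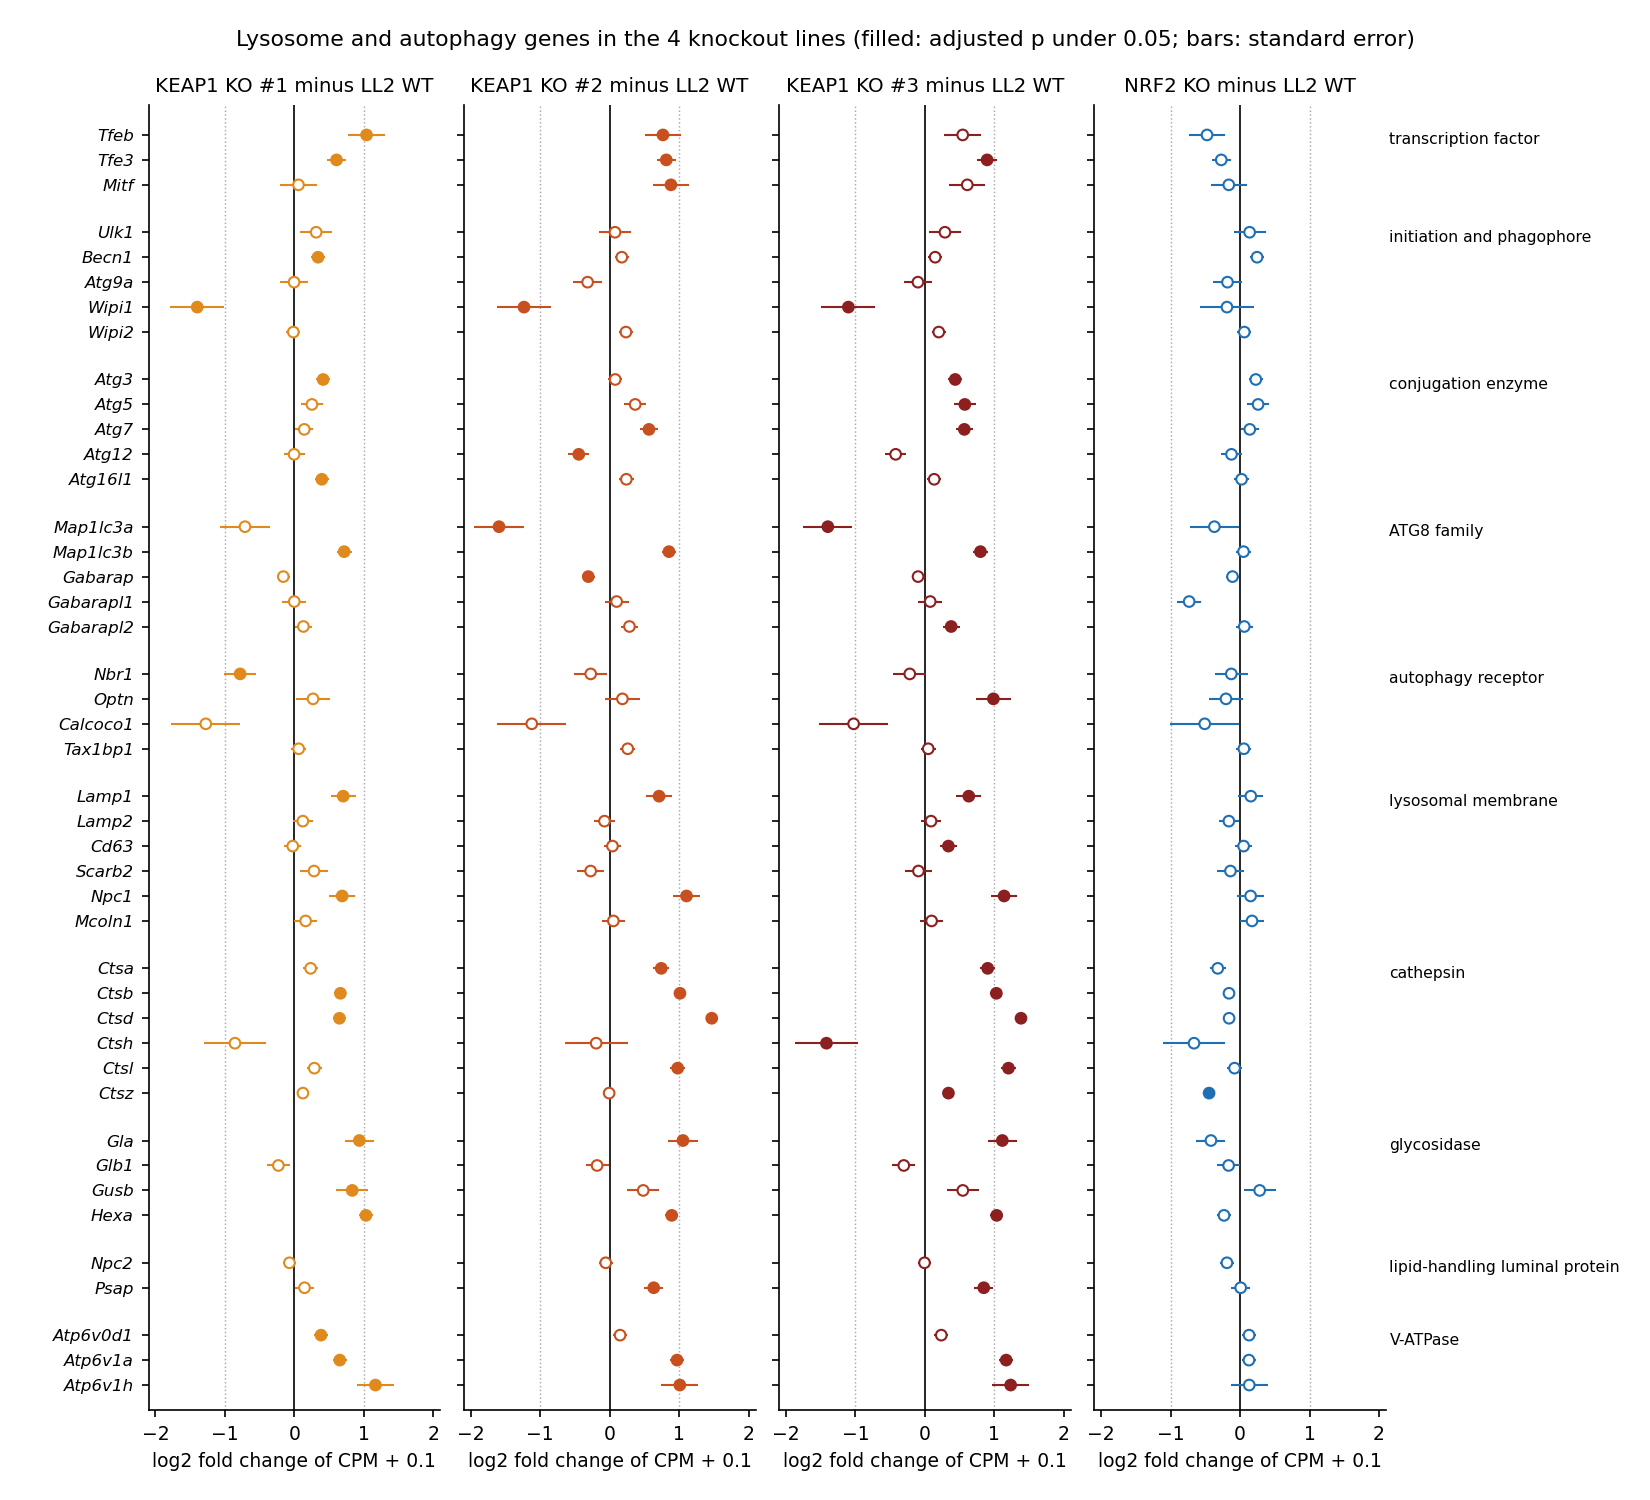
Log2 fold change of CPM + 0.1 against LL2 WT (x axis) for the 43 members, grouped by role (rows), in each of the 4 knockout lines (panels). Points are estimates, bars standard errors, filled points passed at an adjusted p under 0.05 and dotted lines mark a log2 fold change of 1 in either direction; filled points lie mostly to the right in the 3 KEAP1 KO panels, and Ctsz is the only filled point for NRF2 KO.

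**Figure D2:**
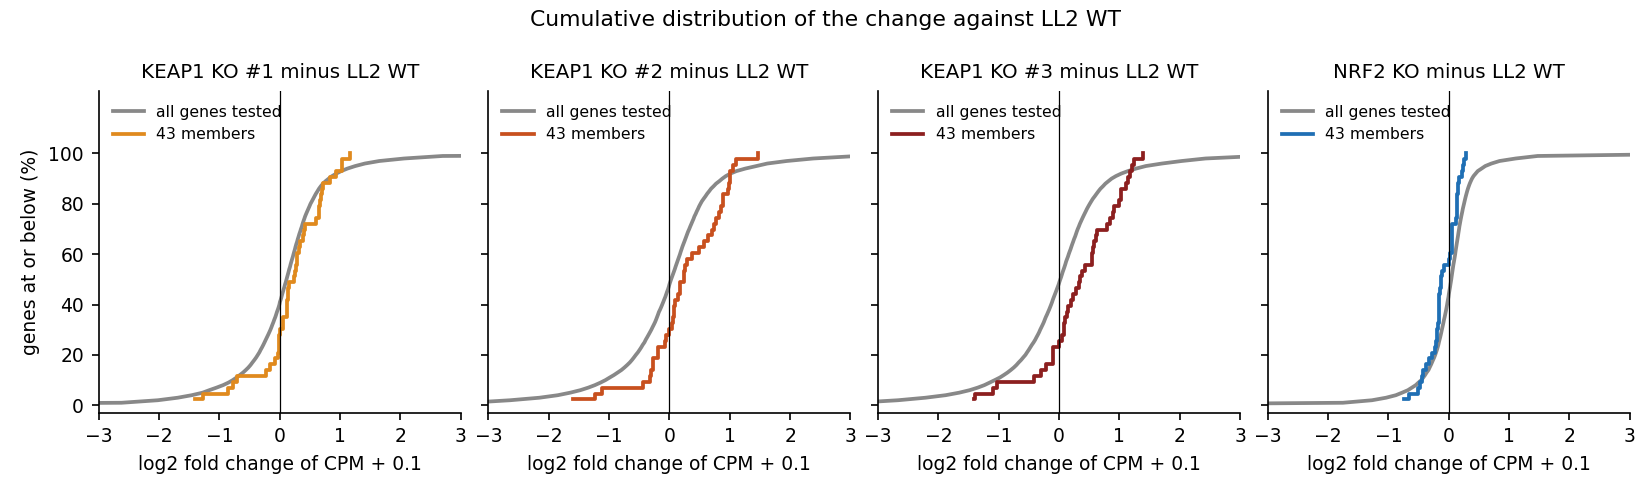
Cumulative distribution of the log2 fold change against LL2 WT for all 14652 genes tested (grey) and the 43 members (colour), 1 panel per knockout line; the y axis is the percent of genes at or below the value on the x axis, which is drawn from -3 to 3. The members' curve lies to the right of the grey curve over most of its range in the KEAP1 KO panels and slightly to the left in NRF2 KO.

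The labels were checked on Keap1, Nfe2l2 and the NRF2 targets Nqo1, a quinone reductase, and Gclm, a subunit of glutathione synthesis. Keap1 was 23.0 ± 1.03 CPM in LL2 WT (SD, n = 3), 11.8 ± 0.889 for clone #1, 5.53 ± 1.57 for clone #2, 5.58 ± 1.60 for clone #3 and 22.7 ± 1.78 for NRF2 KO. Nqo1 was 15.7-fold, 9.13-fold and 16.2-fold higher than LL2 WT in clones #1, #2 and #3 and had a log2 fold change of -1.61 in NRF2 KO (adjusted p = 5.68e-05). Gclm was 6.99-fold to 9.87-fold higher in the KEAP1 KO clones, and its log2 fold change in NRF2 KO was -0.26 (adjusted p = 0.721). Nfe2l2 transcripts fell in all 4 knockout lines, with log2 fold changes of -0.94, -0.59, -0.67 and -0.66 for clones #1, #2 and #3 and NRF2 KO. Markers of other cell types were low: 8 leukocyte and macrophage genes summed to 0.532 to 2.96 CPM in any sample, Ptprc, Adgre1, Itgam, Fcgr1 and Cd74 were below the filter, and 7 fibroblast genes summed to 8.85 to 21.6 CPM in LL2 WT and 3.27 to 5.78 CPM in clone #3. Of the epithelial and lung markers, Krt8 and Krt18 were expressed, while Epcam, Cdh1, Sftpc, Sftpa1 and Nkx2-1 were below the filter. Krt19 was at 5.33 CPM or less and passed in no comparison. Sftpb, a surfactant gene of alveolar type 2 cells, stayed at 0.837 CPM or less in every sample but was higher in all 3 clones (log2 fold changes 1.66, 1.92 and 2.54), and what part these markers had in the results was not tested. Replicate 3 stood apart for some genes: it was the highest of its line in all 5 lines for 20.5% of all genes and for 14 members (32.6%), and the lowest in all 5 lines for 10.19% of all genes and for 5 members (11.6%).

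The 3 transcription factors were all present at low levels and did not move alike. Per kilobase of the longest principal transcript in GENCODE M21, Tfeb was the lowest of the 43 members in LL2 WT at 0.770 CPM per kb, beside 1.1 for Mitf and 5.29 for Tfe3. At the other end stood Cd63, a tetraspanin of late endosomes, at 648 CPM per kb, Lamp1 at 209 and Gabarap at 177.

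Tfe3 was 14.9, 16.8 and 20.2 CPM in LL2 WT (replicates 1, 2 and 3), 28.5, 22.9 and 27.6 for clone #1, 29.1, 28.7 and 33.5 for clone #2, 28.5, 31.6 and 36.7 for clone #3, and 14.0, 13.1 and 15.8 for NRF2 KO. All 9 KEAP1 KO samples lay above all samples of LL2 WT and NRF2 KO. The log2 fold change was 0.61 (SE 0.14, adjusted p = 0.00776), 0.81 (adjusted p = 0.000765) and 0.90 (adjusted p = 0.000364) in the 3 clones, and -0.27 in NRF2 KO (adjusted p = 0.513). Tfe3 was thus between 1.52-fold and 1.86-fold higher in the KEAP1 KO clones.

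Tfeb was 1.62, 1.76 and 1.93 CPM in LL2 WT, 3.66, 3.38 and 4.18 for clone #1, 2.90, 2.34 and 4.27 for clone #2, 2.18, 2.26 and 3.63 for clone #3, and 1.28, 0.944 and 1.58 for NRF2 KO. Every sample of the 3 clones was above all LL2 WT samples, and every NRF2 KO sample was below them. It passed in clone #1 (log2 fold change 1.04, SE 0.26, adjusted p = 0.0132) and clone #2 (0.77, adjusted p = 0.0408), and gave 0.54 in clone #3 (adjusted p = 0.134) and a value of -0.48 in NRF2 KO (adjusted p = 0.554). The KEAP1 KO clones were 2.39-fold above NRF2 KO (log2 fold change 1.26, adjusted p = 0.000776). The result in clone #2 no longer passed without any one of the 3 LL2 WT replicates, and over all fits where it did not pass the adjusted p lay between 0.0502 and 0.146.

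Mitf was 5.11, 3.88 and 7.11 CPM in LL2 WT, 5.13, 4.42 and 7.05 for clone #1, 9.36, 8.47 and 11.5 for clone #2, 7.37, 6.81 and 10.24 for clone #3, and 4.15, 3.88 and 6.21 for NRF2 KO. Clone #2 lay wholly above LL2 WT, and clone #1 overlapped it. Mitf passed in clone #2 alone among the comparisons with LL2 WT (log2 fold change 0.88, SE 0.26, adjusted p = 0.0214), with 0.06 and 0.61 in the other two clones (adjusted p = 0.901 and 0.0933). It did not pass there without replicate 1 or 2 of LL2 WT or replicate 1 or 3 of that clone, nor when these lines were fitted alone (adjusted p between 0.0531 and 0.072). The test among the 3 clones did not pass (adjusted p = 0.118), so a difference between the clones in Mitf was not shown.

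The genes that start the phagophore did not rise as a group: 1 of 5 passed as higher in clone #1, 0 in the other two clones, and Wipi1 fell in all 3. WIPI1 binds phosphatidylinositol 3-phosphate on the forming phagophore. Its level was 37.2, 23.1 and 51.4 CPM in LL2 WT, 13.1, 8.87 and 20.4 for clone #1, 12.8, 11.8 and 22.3 for clone #2, 13.6, 13.4 and 24.2 for clone #3, and 27.5, 23.7 and 45.7 for NRF2 KO. Replicate 3 was the highest of every line, and 8 of the 9 KEAP1 KO samples lay below all LL2 WT samples. The log2 fold change was -1.40 (SE 0.39, adjusted p = 0.0208), -1.23 (adjusted p = 0.0284) and -1.10 (adjusted p = 0.0465) in the 3 clones and -0.19 in NRF2 KO (adjusted p = 0.901). These results were close to the threshold: without LL2 WT replicate 1 the adjusted p was 0.0605, 0.0752 and 0.109 in the 3 clones, and without LL2 WT replicate 3 it was 0.0851, 0.113 and 0.168.

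Becn1, the core of the class III phosphatidylinositol 3-kinase complex, rose in clone #1 alone (log2 fold change 0.34, adjusted p = 0.0267), which no longer passed when any single replicate of that clone was left out. Wipi2, Ulk1 and Atg9a, a lipid scramblase, passed in no line, and their log2 fold changes in the KEAP1 KO clones ran from -0.32 to 0.31.

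The products of the 5 conjugation genes take part in attaching ATG8 proteins and ATG12 to their targets. Of these genes, 2, 1 and 3 were higher and 0, 1 and 0 lower in clones #1, #2 and #3. No single one of them passed in all 3 clones, and the test of differences among the clones passed for 0 of the 5 by limma (3 at an unadjusted p under 0.05). Atg7, the E1-like enzyme of both conjugation steps, was 13.1, 13.1 and 9.92 CPM in LL2 WT, 13.0, 12.8 and 13.8 for clone #1, 17.0, 17.7 and 18.6 for clone #2, 17.5, 16.1 and 19.95 for clone #3, and 13.8, 13.7 and 12.102 for NRF2 KO. Clones #2 and #3 lay above the other three lines with no overlap, while clone #1 overlapped LL2 WT and NRF2 KO. Its log2 fold change was 0.57 in both of those clones (SE 0.13, adjusted p = 0.0045 and 0.00427) and 0.14 in clone #1 (adjusted p = 0.454), and the test among the 3 clones gave an adjusted p of 0.0523.

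Atg3, the E2-like enzyme for ATG8 proteins, passed in clones #1 and #3 (log2 fold changes 0.41 and 0.44), Atg16l1 in clone #1 (0.39) and Atg5 in clone #3 (0.58). Atg12, the ubiquitin-like partner of ATG5, fell in clone #2 (-0.44, adjusted p = 0.0395), and was -0.42 in clone #3 (adjusted p = 0.0502).

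The ATG8 family split by member, with the 2 LC3 genes moving in opposite directions. Map1lc3b, which encodes LC3B, the usual marker of autophagosomes, was 180, 184 and 155 CPM in LL2 WT, 295, 272 and 284 for clone #1, 330, 338 and 272 for clone #2, 313, 316 and 274 for clone #3, and 178, 196 and 163 for NRF2 KO. Every KEAP1 KO sample was above every LL2 WT and NRF2 KO sample. It was 1.64-fold, 1.81-fold and 1.74-fold higher in the 3 clones (log2 fold changes 0.72, 0.85 and 0.80, SE 0.11, adjusted p = 0.000491, 7.2e-05 and 0.000111), with a log2 fold change of 0.05 in NRF2 KO (adjusted p = 0.906). Of its 31-base stretches 8.64% also occur in other genes, most of them in Gm6055, whose mean level was 6.26 CPM in LL2 WT, 36.8, 44.3 and 50.6 CPM for clones #1, #2 and #3 and 8.74 for NRF2 KO, so reads may have been split between this pair.

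Map1lc3a, which encodes the paralogue LC3A, was 22.5, 13.2 and 27.6 CPM in LL2 WT, 12.24, 9.34 and 16.1 for clone #1, 5.04, 5.77 and 9.92 for clone #2, 5.72, 7.36 and 10.4 for clone #3, and 14.0, 11.6 and 23.1 for NRF2 KO. Clones #2 and #3 lay below all LL2 WT samples, and clone #1 overlapped them in 1 sample. The log2 fold change was -1.59 in clone #2 (SE 0.35, adjusted p = 0.00434), -1.40 in clone #3 (adjusted p = 0.00936) and -0.71 in clone #1 (adjusted p = 0.166). Against NRF2 KO it was -0.86 over the 3 clones (adjusted p = 0.0426), which did not pass in 11 of the 25 alternative fits. No 31-base stretch of Map1lc3a occurs in another gene.

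Gabarapl1, an ATG8 protein of the GABARAP branch, showed another pattern. It was 106, 81.0 and 141 CPM in LL2 WT, 115, 103 and 102 for clone #1, 126, 119 and 99.7 for clone #2, 115, 109 and 115 for clone #3, and 56.3, 60.4 and 77.7 for NRF2 KO. The KEAP1 KO samples lay inside the range of LL2 WT, and all 3 NRF2 KO samples lay below every other sample. The log2 fold change in NRF2 KO was -0.73 (SE 0.17, adjusted p = 0.101), which did not pass, and the KEAP1 KO clones were 1.73-fold above NRF2 KO (log2 fold change 0.79, adjusted p = 0.0011). Of the remaining genes of this family, Gabarapl2 rose in clone #3 (0.38) and Gabarap fell in clone #2 (-0.31), each with log2 fold changes between -0.16 and 0.28 in the clones where it did not pass.

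Among the receptors that tie cargo to ATG8 proteins, 0, 0 and 1 of 4 were higher and 1, 0 and 0 lower in clones #1, #2 and #3. Optn, the receptor optineurin, was 3.60, 3.37 and 4.96 CPM in LL2 WT, 4.08, 3.76 and 6.91 for clone #1, 4.22, 4.40 and 4.80 for clone #2, 7.55, 6.38 and 10.08 for clone #3, and 2.93, 3.15 and 4.23 for NRF2 KO. The samples of clone #3 were above all LL2 WT samples, and the other lines overlapped. It was 1.98-fold higher in clone #3 (log2 fold change 0.99, SE 0.25, adjusted p = 0.00949), with 0.27 and 0.18 in the other two clones.

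Nbr1 fell in clone #1 (log2 fold change -0.78, adjusted p = 0.0303), with -0.27 and -0.22 in clones #2 and #3 (adjusted p = 0.406 and 0.516). Calcoco1, a receptor of selective autophagy of the endoplasmic reticulum, had log2 fold changes of -1.28, -1.12 and -1.03 in the 3 clones, of a size like those of Wipi1, but with an SE of 0.50 none passed (adjusted p = 0.081, 0.102 and 0.134). Its values in LL2 WT alone ran from 14.4 to 46.3 CPM, with replicate 3 the highest in every line.

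**Figure D3:**
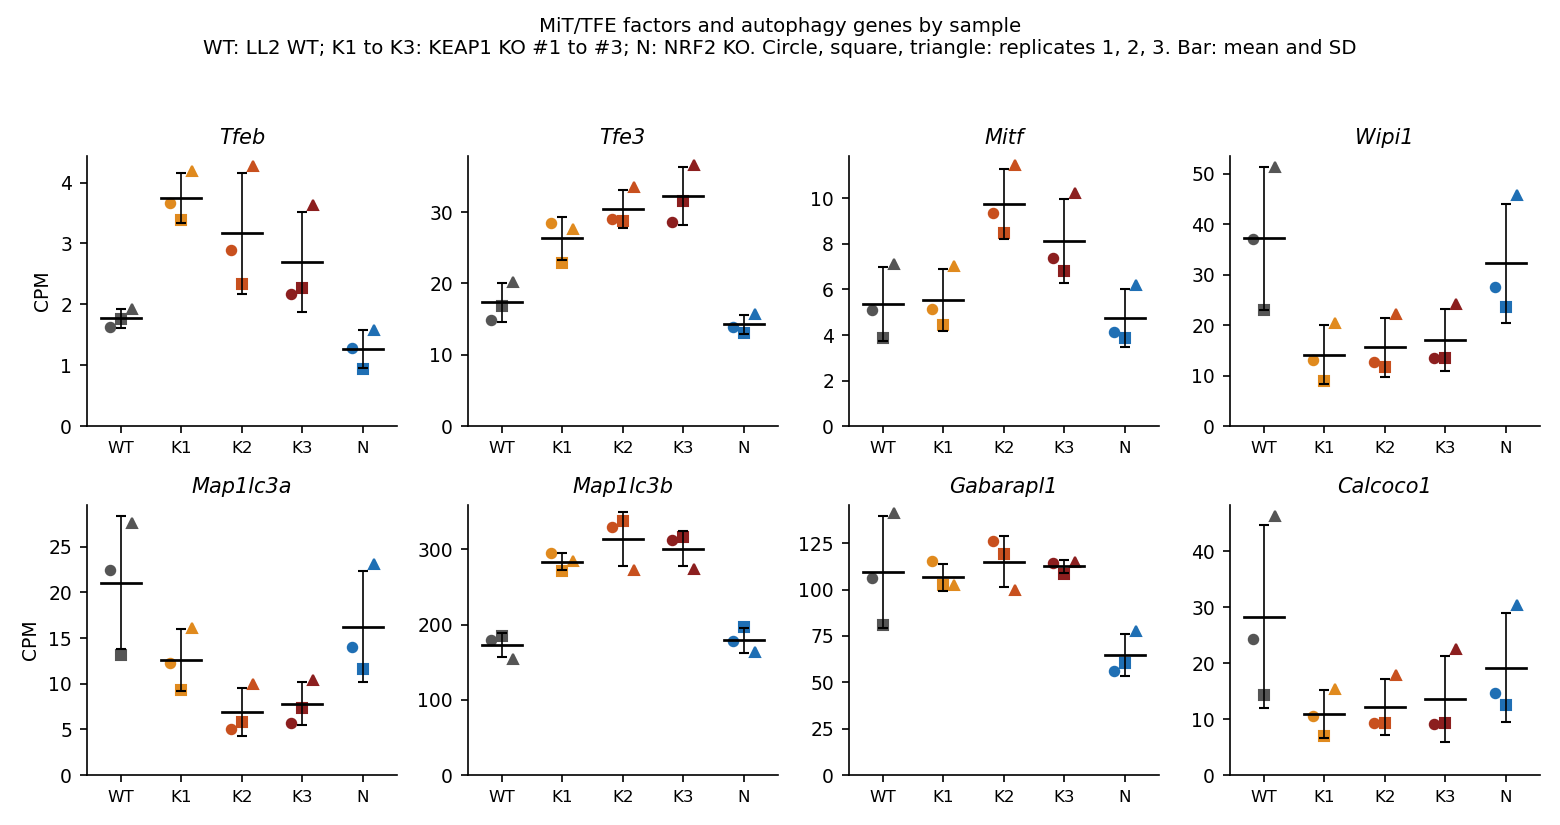
CPM (y axis, from 0) of the 3 MiT/TFE factors among the members and 5 autophagy genes in every sample of the 5 lines (x axis). Circles, squares and triangles are replicates 1, 2 and 3, and black bars give the mean and SD (n = 3). Tfe3 and Map1lc3b lie higher in all KEAP1 KO samples than in LL2 WT, Map1lc3a and Wipi1 lie lower in most, and Gabarapl1 is lowest in NRF2 KO.

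The lysosomal side of the list held most of the genes that rose in every clone. Of the 6 membrane proteins, 2, 2 and 3 were higher in clones #1, #2 and #3, and 0 were lower. Npc1, the transporter that moves cholesterol out of the lysosome, was 11.4, 10.34 and 14.5 CPM in LL2 WT, 18.7, 17.7 and 21.8 for clone #1, 25.1, 23.9 and 28.9 for clone #2, 20.7, 25.7 and 35.0 for clone #3, and 11.7, 12.8 and 15.9 for NRF2 KO. None of the 9 KEAP1 KO samples overlapped the samples of LL2 WT or NRF2 KO, and all were higher. The log2 fold change was 0.69 (SE 0.19, adjusted p = 0.0205), 1.11 (adjusted p = 0.000786) and 1.14 (adjusted p = 0.000612), or 1.61-fold to 2.2-fold, and 0.15 in NRF2 KO (adjusted p = 0.828). In clone #1 Npc1 did not pass without replicate 1 or 2 of LL2 WT or replicate 3 of that clone, nor when fitted with LL2 WT alone (adjusted p between 0.053 and 0.0718).

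Lamp1, one of the most abundant proteins of the lysosomal membrane, was 482, 558 and 356 CPM in LL2 WT, 785, 769 and 682 for clone #1, 834, 839 and 600 for clone #2, 762, 762 and 613 for clone #3, and 465, 615 and 461 for NRF2 KO. The KEAP1 KO samples all lay above LL2 WT, and 7 of 9 lay above all NRF2 KO samples. It was 1.63-fold, 1.64-fold and 1.55-fold higher in the 3 clones (adjusted p = 0.0143, 0.00961 and 0.0178). Without LL2 WT replicate 3, or without replicate 2 of clone #1 or replicate 1 or 2 of clone #3, it no longer passed in clone #1 or #3, nor in clone #1 under median-ratio rescaling, and it passed in none of the 3 when each was fitted with LL2 WT alone (adjusted p between 0.0527 and 0.0721 over all fits where it did not pass). Its partner Lamp2 did not pass in any line, with log2 fold changes of 0.12, -0.07 and 0.09 in the KEAP1 KO clones, and neither did the calcium channel Mcoln1 or Scarb2, the receptor that carries glucocerebrosidase to the lysosome. Cd63 passed in clone #3 alone (log2 fold change 0.34, adjusted p = 0.0477), and did not pass in 14 of 25 alternative fits.

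The cathepsins changed most in amount. Their summed level was 1544 to 1696 CPM in LL2 WT, 2110 to 2305 for clone #1, 2991 to 3371 for clone #2, 3282 to 3692 for clone #3 and 1455 to 1482 for NRF2 KO. Of the 6 genes, 2, 4 and 5 were higher in the 3 clones, and 1 (Ctsh) was lower in clone #3.

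Ctsd, an aspartic protease whose start region holds both motif cores, was 171, 193 and 183 CPM in LL2 WT, 307, 268 and 283 for clone #1, 528, 527 and 461 for clone #2, 455, 485 and 486 for clone #3, and 151, 179 and 160 for NRF2 KO. The clones formed steps with no overlap: clone #1 lay between LL2 WT and the other two clones. The difference was 1.57-fold in clone #1 (log2 fold change 0.65, SE 0.09, adjusted p = 0.000271), 2.77-fold in clone #2 (1.47, adjusted p = 1.44e-07) and 2.61-fold in clone #3 (1.38, adjusted p = 2.22e-07), while NRF2 KO gave a log2 fold change of -0.16 (adjusted p = 0.562). Ctsd shares 33.2% of its 31-base stretches with other genes, chiefly the gene model Gm49369, which was itself at 7.12 CPM or less in every sample.

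Ctsb, a cysteine protease, was 457, 409 and 473 CPM in LL2 WT, 692, 703 and 720 for clone #1, 945, 911 and 843 for clone #2, 907, 918 and 903 for clone #3, and 381, 372 and 448 for NRF2 KO. No sample of a KEAP1 KO clone reached down to LL2 WT, and clone #1 was again below the other two clones. It was 1.58-fold, 2.02-fold and 2.04-fold higher (log2 fold changes 0.66, 1.01 and 1.03, SE 0.09, adjusted p = 0.000185, 2.78e-06 and 2.25e-06).

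Ctsl, the most abundant cathepsin transcript by CPM, was 784, 672 and 795 CPM in LL2 WT, 827, 924 and 993 for clone #1, 1551, 1503 and 1379 for clone #2, 1942, 1745 and 1510 for clone #3, and 757, 697 and 673 for NRF2 KO. Clone #1 stood just above LL2 WT without overlap, yet its log2 fold change of 0.29 did not pass (adjusted p = 0.078). In clones #2 and #3 the level was 1.97-fold and 2.3-fold higher (0.98 and 1.203, SE 0.11, adjusted p = 2.83e-05 and 4.67e-06). Of its 31-base stretches 28.2% also occur in other genes, so reads of near copies may be counted with it.

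Ctsa, the protective protein of lysosomal glycosidases, was 116, 119 and 97.2 CPM in LL2 WT, 124, 135 and 130 for clone #1, 195, 202 and 160 for clone #2, 204, 222 and 194 for clone #3, and 81.9, 99.2 and 84.6 for NRF2 KO. Every sample of the 3 clones exceeded LL2 WT, by a small margin in clone #1 (log2 fold change 0.23, adjusted p = 0.154) and a wide one in clones #2 and #3 (0.74 and 0.90, adjusted p = 0.000298 and 5.94e-05). Ctsz was the one member that fell in NRF2 KO: 154, 150 and 146 CPM in LL2 WT against 110, 106 and 115 in NRF2 KO (log2 fold change -0.45, SE 0.07, adjusted p = 0.0128). It did not pass when replicate 1 of the parental line, or replicate 1 or 2 of NRF2 KO, was left out, and in a fit of these 2 lines alone (adjusted p between 0.0605 and 0.276). In clone #3 Ctsz was 183, 199 and 189 CPM, and it rose there (0.34, adjusted p = 0.00317), while clones #1 and #2 gave 0.12 and -0.01.

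Ctsh, a low-level cysteine protease with aminopeptidase activity, went the other way. It was 1.40, 1.09 and 2.17 CPM in LL2 WT, 0.899, 0.503 and 1.04 for clone #1, 1.38, 1.29 and 1.22 for clone #2, 0.395, 0.420 and 0.728 for clone #3, and 0.346, 1.48 and 1.36 for NRF2 KO. Clones #1 and #3 lay below LL2 WT, and NRF2 KO overlapped it with 1 sample far lower. It fell in clone #3 (log2 fold change -1.42, SE 0.45, adjusted p = 0.0299), which did not pass without replicate 1 or 3 of LL2 WT or replicate 1 or 2 of that clone (adjusted p between 0.061 and 0.109).

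**Figure D4:**
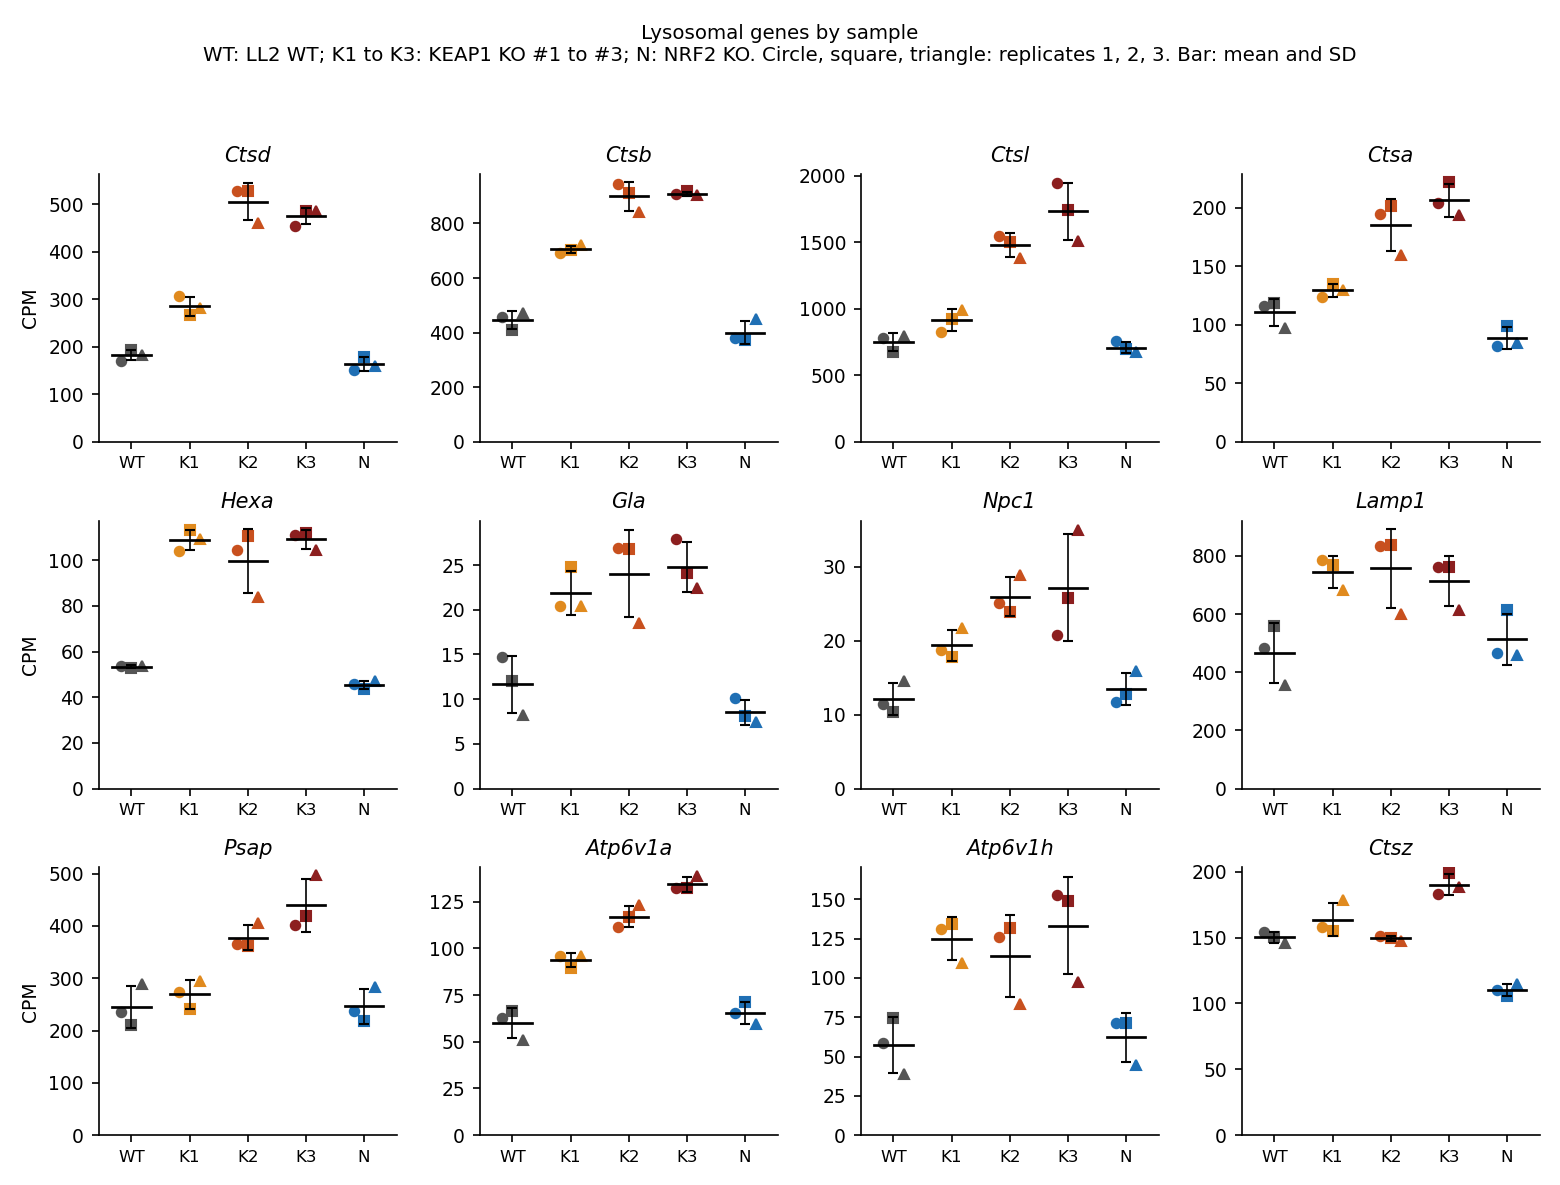
CPM (y axis, from 0) of 12 lysosomal genes in every sample of the 5 lines (x axis); circles, squares and triangles are replicates 1, 2 and 3, and black bars give the mean and SD (n = 3). Hexa and Gla rose to like levels in all 3 KEAP1 KO clones, whereas Ctsd, Ctsb, Ctsl, Ctsa, Psap and Atp6v1a were lower in KEAP1 KO #1 than in KEAP1 KO #2 and #3.

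Hexa and Gla led the glycosidases, of which 3, 2 and 2 of 4 were higher in the 3 clones and 0 lower. Hexa, the alpha subunit of beta-hexosaminidase, was 53.7, 52.6 and 53.6 CPM in LL2 WT, 104, 113 and 109 for clone #1, 105, 111 and 83.9 for clone #2, 111, 112 and 104 for clone #3, and 45.6, 43.5 and 47.2 for NRF2 KO. The KEAP1 KO samples were far above LL2 WT, and the NRF2 KO samples were all below it. Hexa was 2.04-fold, 1.86-fold and 2.05-fold higher (log2 fold changes 1.03, 0.89 and 1.03, SE 0.09, adjusted p = 1.14e-05, 1.74e-05 and 4.65e-06), and its log2 fold change in NRF2 KO was -0.23 (adjusted p = 0.384).

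Gla, alpha-galactosidase A, with a pair of CLEAR palindromes in the stretch above, was 14.7, 12.0 and 8.28 CPM in LL2 WT, 20.5, 24.7 and 20.4 for clone #1, 26.9, 26.8 and 18.5 for clone #2, 27.9, 24.1 and 22.4 for clone #3, and 10.102, 8.08 and 7.43 for NRF2 KO. All 9 KEAP1 KO samples lay above LL2 WT and NRF2 KO, which overlapped each other. It was 1.91-fold, 2.08-fold and 2.17-fold higher (log2 fold changes 0.93, 1.06 and 1.11, SE 0.21, adjusted p = 0.00664, 0.00213 and 0.00139). Against NRF2 KO the 3 clones were 2.74-fold higher (log2 fold change 1.45, adjusted p = 3.75e-05), more than for any other member. Gusb, beta-glucuronidase, rose in clone #1 (0.83, adjusted p = 0.0193), with 0.48 and 0.55 in the other two clones (adjusted p = 0.124 and 0.0854), and Glb1, beta-galactosidase, passed in none.

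The lipid-handling pair differed. Psap, the precursor of the saposins that present lipids to lysosomal hydrolases, was 236, 210 and 289 CPM in LL2 WT, 274, 240 and 295 for clone #1, 366, 362 and 405 for clone #2, 402, 418 and 497 for clone #3, and 237, 217 and 284 for NRF2 KO. Clones #2 and #3 lay above the other three lines, which overlapped. Its log2 fold change was 0.15 in clone #1 (adjusted p = 0.476), 0.63 in clone #2 (SE 0.14, adjusted p = 0.00338) and 0.85 in clone #3 (adjusted p = 0.000437). Npc2, the luminal partner of NPC1, had log2 fold changes of -0.07, -0.06 and 0.00 and passed in no line, unlike Npc1.

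Of the 3 V-ATPase subunits in the list, 3, 2 and 2 were higher in clones #1, #2 and #3, and 0 lower. Atp6v1a, the catalytic A subunit, was 62.6, 66.3 and 51.2 CPM in LL2 WT, 96.1, 89.6 and 95.9 for clone #1, 111, 117 and 123 for clone #2, 132, 132 and 139 for clone #3, and 65.4, 71.5 and 59.3 for NRF2 KO. The 3 clones formed 3 steps above LL2 WT with no overlap. The difference was 1.57-fold, 1.96-fold and 2.25-fold (log2 fold changes 0.65, 0.97 and 1.17, SE 0.10, adjusted p = 0.000601, 1.45e-05 and 2.65e-06), with 0.13 in NRF2 KO (adjusted p = 0.707).

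Atp6v1h, the regulatory H subunit, was 58.8, 74.2 and 39.0 CPM in LL2 WT, 131, 134 and 109 for clone #1, 126, 132 and 83.7 for clone #2, 153, 149 and 97.6 for clone #3, and 71.1, 71.1 and 44.3 for NRF2 KO. Replicate 3 was the lowest of every line, and the KEAP1 KO samples nevertheless all lay above LL2 WT and NRF2 KO. It was 2.24-fold, 2.01-fold and 2.35-fold higher (log2 fold changes 1.17, 1.01 and 1.23, SE 0.27, adjusted p = 0.00749, 0.0118 and 0.00356). In clone #2 it fell just short without LL2 WT replicate 3, without replicate 2 of that clone and when fitted with LL2 WT alone (adjusted p between 0.0501 and 0.0533). Atp6v0d1, a subunit of the membrane domain, passed in clone #1 (0.38, adjusted p = 0.0171), with 0.15 and 0.24 in the other clones.

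A test of differences among the 3 KEAP1 KO clones passed for 7 of the 43 members, 16.3%, a share near the 12.6% of all genes: Ctsa, Ctsb, Ctsd, Ctsl, Ctsz, Psap and Atp6v1a. The count was 4 without KEAP1 KO #1 replicate 2 and 11 without LL2 WT replicate 3. It was higher still when the 3 clones were fitted alone, with a replicate block and with replicate 3 as a batch, as given in the closing section. The share of all genes under those fits is not given here, so the comparison with 12.6% holds for the main fit only. In 6 of these 7 clone #1 had the lowest mean of the 3 clones, and Ctsz was lowest in clone #2. Clone #1 was also the clone that kept the most Keap1 transcript, and its Nqo1 level was 476 CPM beside 276 and 488 CPM in clones #2 and #3. For Hexa and Gla the test among clones did not pass (adjusted p = 0.543 and 0.858).

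Other genes of the same pathways, 115 in all and 110 of them tested, were counted for comparison. In clones #1, #2 and #3, 29, 27 and 34 were higher (26.4%, 24.5% and 30.9%), beside 15.9%, 17.3% and 16.6% of all genes, and 9, 14 and 15 were lower (8.18%, 12.7% and 13.6%), beside 7.25%, 14.6% and 14.8%. In NRF2 KO 0 passed in either direction by limma, with 17 (15.5%) at an unadjusted p under 0.05, beside 11.2% of all genes. Of the 15 further V-ATPase genes 8, 9 and 11 were higher (53.3%, 60% and 73.3%) and 0, 1 and 1 lower. Lysosomal genes outside the 43 went both ways: of 47 tested, 9, 8 and 9 were higher (19.1%, 17.0% and 19.1%, near the shares of all genes) and 9, 10 and 10 lower (19.1%, 21.3% and 21.3%), and those lower in all 3 clones were Laptm4a, Ppt1, Ids, Asah1 and Acp2. Of 33 further autophagy genes, 5, 8 and 8 were higher (15.2%, 24.2% and 24.2%), in clone #1 a share near that of all genes, and 0, 2 and 2 lower. A last list held 15 tested genes of TFEB control and of nutrient sensing at the lysosome, with Tfec, a relative of Tfeb. Of these 15, 7, 2 and 6 were higher (46.7%, 13.3% and 40%) and 0, 1 and 2 lower. Tfec was among those higher in clones #1 and #3.

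Sort1, the sorting receptor sortilin, was the one further gene called in all 3 clones. It was 1.70, 1.67 and 1.85 CPM in LL2 WT, 7.21, 4.40 and 7.79 for clone #1, 5.02, 4.43 and 8.34 for clone #2, 4.83, 4.58 and 9.24 for clone #3, and 1.02, 1.16 and 1.19 for NRF2 KO. The 3 clones overlapped each other but lay above LL2 WT, which lay above NRF2 KO, and Sort1 was 3.47-fold, 3.16-fold and 3.26-fold higher in the clones (adjusted p = 0.00111, 0.00117 and 0.000934). Of the others, 4 were singled out after their values were seen. Sqstm1, the receptor p62 that also binds KEAP1, was 1.83-fold, 1.90-fold and 2.06-fold higher (adjusted p = 0.000299, 0.000101 and 3.5e-05). Grn, the lysosomal protein progranulin, was 1.40-fold, 2.01-fold and 2.08-fold higher, with the smallest difference in clone #1 as for Ctsa, Ctsb, Ctsd and Ctsl. Atp6v0c, the proton-carrying ring subunit, was 1.49-fold, 1.96-fold and 2.3-fold higher, and Atp6v1b2, the B subunit, 2.03-fold, 1.66-fold and 1.70-fold. In NRF2 KO the log2 fold changes of Sqstm1, Grn, Atp6v0c and Atp6v1b2 were -0.34, 0.11, 0.14 and 0.22, and none passed.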

How the data were processed

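RNA from 3 replicates of each of 5 cultured LL2 lines was sequenced as poly(A) libraries. The authors pseudo-aligned reads with Kallisto (v0.48.0 in their methods) to mouse cDNA and deposited CPM values (counts scaled to a common total) per gene symbol. Their methods name GRCm38.p6 and the submitters' processing notes GRCm39; the file holds no coordinates. CPM summed to 999412 to 999525 per sample. The values are fractional and whole reads could not be recovered, so the depth of each sample is not known from the file and no counting interval is given; the authors' methods state only an average over samples. The authors' methods call the replicates biologic triplicates without saying whether they were separate cultures, so p-values measure the spread between these samples.

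Genes with a CPM sum of at least 3 were kept, and log2(CPM + 0.1) was fitted with limma 3.58.1 in R 4.3.3 with 1 mean per line, a variance trend and Benjamini-Hochberg adjustment over 14652 genes. The steps were tested on simulated data. Replicates sharing a number were compared as possible pairs, and 25 alternative fits were run. The 43 members, the gene lists, roles and tests were chosen with earlier results of these data known. Values in every sample were given for members called in any line, for the member of each role with the smallest p over the 5 lines and for Tfeb, Tfe3 and Mitf. Values in every sample were added for Gabarapl1, Lamp1 and Ctsa after their values were seen. The genomic positions and start regions are those of RefSeq on GRCm38.p6, and shared 31-base stretches and transcript lengths those of GENCODE M21.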

Additional observations from a re-analysis of the deposited data

Results flagged for a closer look

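The level differed among the 3 KEAP1 KO clones, by limma's F test over the clones with Benjamini-Hochberg adjustment over all genes, for 7 members: Ctsb (adjusted p = 0.0180), Ctsd (adjusted p = 0.000111), Ctsl (adjusted p = 0.00035), Psap (adjusted p = 0.00993), Atp6v1a (adjusted p = 0.0115), Ctsa (adjusted p = 0.00378) and Ctsz (adjusted p = 0.0166). Mean levels in KEAP1 KO #1, #2 and #3 were 286, 505 and 476 CPM for Ctsd, 915, 1478 and 1732 CPM for Ctsl, and 93.9, 117 and 134 CPM for Atp6v1a. Keap1 itself (adjusted p = 0.00458) and Nqo1 (adjusted p = 0.00215) also differed among the clones, with Keap1 highest in KEAP1 KO #1 at 11.8 CPM and Nqo1 lowest in KEAP1 KO #2 at 276 CPM. Because each clone comes from 1 cell, a difference of clone and a difference of knockout cannot be told apart.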

How the results depend on the processing

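For the 43 members, 82 comparisons passed, and each was refitted under 25 alternatives: in 1894 of 2050 refits the direction held and the result passed again, and in 156 the direction held but the result did not pass. Those that failed most often were Cd63 in KEAP1 KO #3 (14 of 25), Tfeb in KEAP1 KO #2, Wipi1 in KEAP1 KO #3 and Map1lc3a against NRF2 KO (11 each) and Atg12 in KEAP1 KO #2 (10). Each of the 3 LL2 WT replicates decided Tfeb in KEAP1 KO #2, with an adjusted p of 0.0502 to 0.146 over the fits where it did not pass. LL2 WT replicates 1 and 3 decided Wipi1 in all 3 clones and Nbr1 in KEAP1 KO #1.

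Counts of members moved by more than 1.5 times as follows. Fitting the lines compared alone gave 7 higher and 0 lower in KEAP1 KO #1, 1 lower in KEAP1 KO #2 and 0 lower in NRF2 KO. It gave 12 differing among the clones. Counts over all 14652 genes fell too. In KEAP1 KO #1 they were 991 higher and 576 lower, beside 2330 and 1062 in the main fit. Genes lower in KEAP1 KO #2 were 1436 beside 2146, and in NRF2 KO 5 beside 72. With no filter on low values, 1, 2 and 1 members were lower in KEAP1 KO #1, #2 and #3. Against NRF2 KO 1 member was lower in the KEAP1 KO clones, where no variance trend also gave 1. Of the 25645 genes tested without the filter, 950, 1943 and 2006 were lower in the 3 clones and 1708 against NRF2 KO. No variance trend gave 1715 of all genes lower against NRF2 KO, beside 1803 in the main fit. Quantile normalization gave 4 and 5 members lower in KEAP1 KO #1 and #3 and 11 differing among clones. Of all genes, 1654 and 2523 were then lower in these 2 clones, beside 1062 and 2167 in the main fit. A pseudocount of 1 CPM left 5 members called against NRF2 KO, with 804 of all genes called, beside 1457 in the main fit. Leaving out 1 replicate at a time gave 11 to 16 members higher, 0 to 3 lower and 2 to 6 called in KEAP1 KO #1. It gave 1 to 4 lower and 4 to 9 called in KEAP1 KO #2 and 1 to 5 lower in KEAP1 KO #3. In NRF2 KO 0 to 2 were lower, against NRF2 KO 0 to 2 were lower, and 4 to 11 differed among clones. Over all genes these fits gave 1442 to 2703 higher, 572 to 1281 lower and 922 to 1532 called in KEAP1 KO #1. The share of all genes differing among clones under the fits in this paragraph is not given here. For counts that moved by less, no value is given.

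Samples with the same replicate number deviated together in part: the median correlation of their deviations over 11676 genes was 0.28 for 30 same-number pairs and -0.19 for 60 others. Every pair exceeded 0.1 only for KEAP1 KO #2 with #3 and KEAP1 KO #3 with NRF2 KO, so the numbers were not taken to pair the samples. The replicate 3 samples did deviate together in every pair of lines, with correlations from 0.42 to 0.63. The main fit had no term for this, so it stayed in the spread that the p-values use. With a replicate block or replicate 3 as a batch, 15 members passed as higher in all 3 KEAP1 KO clones, beside 10 in the main fit. With a replicate block, 5, 7 and 6 members were lower in the 3 clones, 3 in NRF2 KO and 4 against NRF2 KO, and 19 differed among clones. With replicate 3 as a batch these counts were 5, 7, 6, 2, 4 and 19. Counts over all genes rose as well. With the block 2111, 3332 and 3355 were lower in the 3 clones, beside 1062, 2146 and 2167 in the main fit. In NRF2 KO 285 were lower beside 72, and against NRF2 KO 2922 beside 1803. How many of all genes differed among clones, or were higher in all 3, is not given here for these fits.

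The sign turned only for values that had not passed. Under median-ratio rescaling the log2 fold change became -0.047 for Mitf in KEAP1 KO #1 and -0.038 for Psap in NRF2 KO, and under quantile normalization -0.015 for Map1lc3b and -0.027 for Psap in NRF2 KO, -0.044 and -0.065 for Gabarapl1 in KEAP1 KO #2 and #3, and -0.038 for Ctsz in KEAP1 KO #1. Over the fits without 1 replicate it ran from -0.15 to 0.28 for Mitf in KEAP1 KO #1. For Gabarapl1 it ran from -0.20 to 0.20, -0.098 to 0.30 and -0.12 to 0.28 in the 3 clones, and in KEAP1 KO #2 from -0.40 to 0.060 for Ctsh and -0.028 to 0.013 for Ctsz. In NRF2 KO the ranges were -0.37 to 0.059 for Mitf, -0.49 to 0.081 for Wipi1, -0.030 to 0.11 for Map1lc3b, -0.098 to 0.13 for Psap, -0.12 to 0.36 for Atp6v1h, -0.31 to 0.041 for Nbr1, -0.027 to 0.30 for Lamp1, -0.039 to 0.50 for Gusb, -0.055 to 0.30 for Atp6v0c, -0.028 to 0.21 for Grn and -0.081 to 0.017 for Keap1. For the KEAP1 KO clones against NRF2 KO they were -0.75 to 0.16 for Ctsh and -0.18 to 0.083 for Nfe2l2. The causes of these shifts were not tested. The depth of each library is not known from the file, which limits most the genes of a few CPM (Tfeb, Optn and Ctsh).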
